A study of Mus musculus with 4 samples.

Results

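The genes described here are 58 mouse genes of transforming growth factor beta (TGF-beta) and bone morphogenetic protein (BMP) signalling, chosen by name: 22 ligand genes, 13 receptor genes, 8 Smad genes, 10 inhibitor genes and 5 genes of ligand latency and processing. For each gene, the regions of the deposited list that overlapped its RefSeq body, or the 2000 bp on either side, were collected. They came to 95 of the 39231 regions in the list. The list compares methyl-CpG-captured DNA of cultured satellite cells, the stem cells of skeletal muscle, from 2 kinds of mice: mice given tamoxifen, in which Cre recombinase is induced and Uhrf1 is deleted in satellite cells, and control mice given oil. Tamoxifen was injected into the abdomen (150 µl of a 20 mg/ml solution) on 5 consecutive days. Cells came from hindlimb muscles of 9-week-old mice and were grown for 3 days on Matrigel. The sources used here name neither the Cre driver, nor the Uhrf1 allele, nor the number of mice behind each library, and do not say whether the oil mice carried the same alleles.

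TGF-beta, activin, myostatin and BMP ligands are secreted as dimers and bind pairs of type I and type II receptor kinases on the cell surface. Activated type I receptors phosphorylate receptor Smads, which join Smad4 and enter the nucleus to regulate genes. Secreted antagonists, inhibitory Smads, ubiquitin ligases and nuclear corepressors limit the pathway at each step. In muscle, myostatin restrains growth, TGF-beta holds back the differentiation and fusion of myoblasts, and BMP signals keep satellite cell progeny dividing. Uhrf1 binds hemimethylated CpG after replication and recruits the methyltransferase Dnmt1, which restores the methyl group on the new strand.

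The comparison had 1 tamoxifen library and 1 oil library, so the spread between animals is unknown and no test between the treatments was possible. After removal of duplicates the tamoxifen library held 25614791 tags and the oil library 19534328. Before it they held 36519772 and 35216008, with redundant rates of 0.30 and 0.45, so most of the difference in tags arose at this step. The list was called with oil over tamoxifen, so every region in it is lower in the tamoxifen library after scaling. Regions that were higher in tamoxifen, and the 2 libraries of non-methylated DNA, were not analysed here. The headers do not say which DNA part the alignments hold, and they are read here as the captured, methylated part. Uhrf1 itself held 4 regions, with 6, 23, 15 and 13 tamoxifen tags against 56, 90, 90 and 46 oil tags in genome order. The deleted interval is not given, so these tags do not check the deletion. The list holds no expression values, so the cells could not be checked against satellite cell markers. With 1 library each, the deletion, tamoxifen itself, the animals, the culture and the capture cannot be told apart.

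In all, 37 of the 58 genes (63.8%) carried 1 or more regions, and 21 carried none. Over all 34614 protein-coding and lncRNA genes the share was 38.2%, and over the 21887 protein-coding genes it was 45.2%. The 58 genes were longer than most, with a median length of 37.7 kb against 17.2 kb for protein-coding genes. Longer genes carried regions more often. Of the 38 members of 20 kb or more, 30 carried a region, where 66.8% of protein-coding genes of that length did. Of the 20 shorter members, 7 did, where the share was 27.0%. Between 5 and 20 kb the members lay below the protein-coding share, with 4 of 15 against 37.1%. Under 5 kb they lay above it, with 3 of 5 (Inha, Gdf5 and Gdf15) against 13.2%. Whole gene bodies with their flanks held 2.59 regions per 100 kb in the members and 2.24 per 100 kb in protein-coding genes. Among genes with a region the order was the other way, with a median of 4.02 per 100 kb in members and 4.83 in protein-coding genes.

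**Figure D1:**
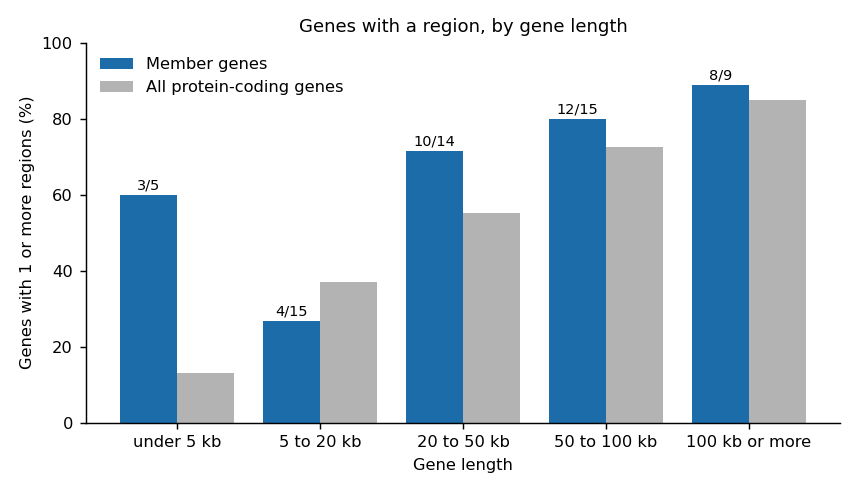
Percent of genes with 1 or more regions (vertical axis) in 5 classes of gene length (horizontal axis), for the 58 member genes (blue, with counts above the bars) and for all protein-coding genes (grey). The members lie below the protein-coding share in the class from 5 to 20 kb and above it in the other 4 classes, with only 5 to 15 members in a class.

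The signal left in the tamoxifen library lay near that of the list at large. Tags below are unscaled counts over a region's summit, the point where the oil signal was highest, and a fold is the authors' value at that summit, oil over tamoxifen. The tamoxifen signal as a percent of oil is the ratio of tags after scaling by library size, with exact 95% limits that cover counting error only. Because regions were chosen for a low tamoxifen signal at the summit of oil, these values describe the list and test nothing. The median member region had 14 tamoxifen tags and 55 oil tags, and the median of all regions was 14 tamoxifen tags and 51 oil tags. The median fold was 4.96 in member regions and 4.61 in all regions. Summed over the member summits, there were 1907 tamoxifen tags against 6601 oil tags, so that the tamoxifen signal was 22.0% of oil (95% limits 20.9% to 23.2%), where all regions gave 23.0%. A fold of 4 or more was found in 68 member regions (71.6%), where the share over all regions was 66.1%. A fold of 10 or more was found in 4 member regions (4.21%), where that share was 2.03%. These 4 lay in Smad7 (2 regions), Ski and Ltbp4.

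**Figure D2:**
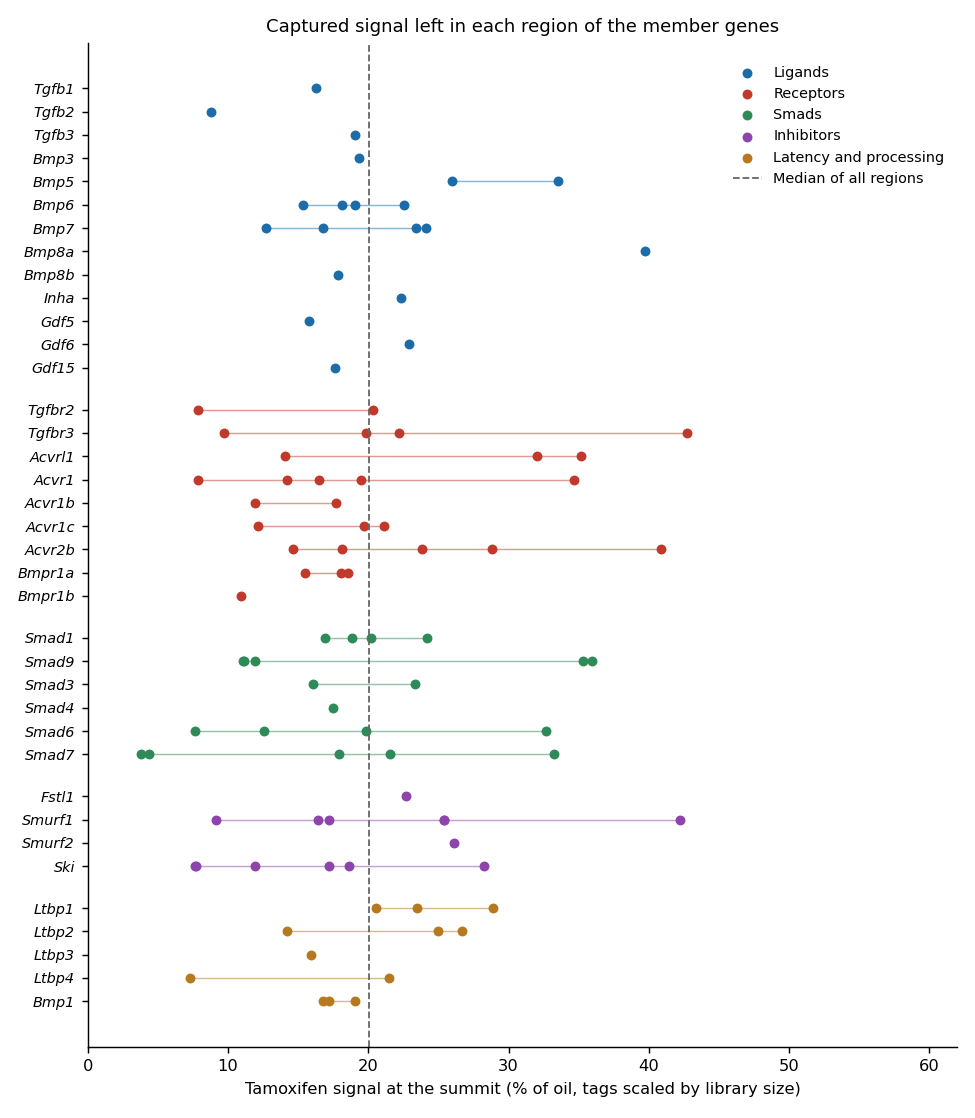
Tamoxifen signal at the summit as a percent of oil, with tags scaled by library size (horizontal axis), for each of the 95 regions (points) of the 37 genes with a region (rows, coloured by role). A thin line joins the regions of 1 gene, and the dashed line is the median of all 39231 regions (20.1%). One Smad7 region with 2 or fewer tamoxifen tags is drawn at 4.36%, the value for 2 tags, which is the most it can be. Values as drawn run from 3.77% in Smad7 to 42.7% in Tgfbr3, and the ranges of the roles overlap.

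Most regions lay inside the gene bodies, and where a start was listed most were more than 5 kb from it. Of the 95 regions, 91 overlapped the gene body and 4 lay outside it, at 1299 bp from Tgfb2, 1504 bp from Bmpr1a, 1622 bp from Gdf15 and 1905 bp from Smad7. The search covered 3441 kb of gene body and only 2000 bp on either side of each gene, so a high share inside follows from its design. RefSeq promoter sequences (GRCm38.p6) with a listed start and strand were matched for 43 of the 58 genes. These 43 genes held 71 regions, at a median distance of 26.5 kb from the nearest listed start, and 7 of the 71 were within 5 kb of one. These distances are not set beside those of all protein-coding genes. A region within 2000 bp of a listed start was found in 1 of the 43 genes, Tgfbr2, where the share among protein-coding genes with a listed start was 8.32%. Among the other 15 genes, for which either gene end was used, 4 had a region that close (Bmp7, Gdf5, Tgfbr3 and Smad7), where the protein-coding share was 18.8%. Of these, the Gdf5 and Smad7 regions were no longer within 2000 bp by their midpoints, so that 3 genes were left with Tgfbr2 counted. With either end used for every gene, 14 of the 58 (24.1%) had one, where the protein-coding share was 18.4%. Listed starts do not always lie at the end of the gene body, so distances from them can be too long. The regions beyond the right ends of Tgfb2 and Bmpr1a, on the minus strand, were 5.11 and 2.40 kb from a listed start. The Bmpr1b region, 329 kb from the left end of this minus-strand gene of 332 kb, was 183 kb from one. Regions inside genes with a listed strand were spread along the whole body. With gene bodies cut into 4 equal parts from start to end, the parts held 17, 13, 16 and 21 of 67 member regions, and over all protein-coding genes they held 18.9%, 22.3%, 25.3% and 33.4%.

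Promoter sequence is shown for 4 genes because capture by MBD2, a protein that binds methylated CpG, depends on how many CpG a fragment holds. Each line gives the 250 bases before the RefSeq start in GRCm38.p6, 5′ to 3′ on the gene's strand, with every CpG in capitals. The windows are those of Tgfbr2 (chr9:116175364-116175613, minus strand), the one listed start with a region within 2000 bp, Smad9 (chr3:54755332-54755581, plus strand), whose nearest region is 2.91 kb downstream of the start, Ski (chr4:155222536-155222785, minus strand), the member window richest in CpG, and Mstn (chr1:53061390-53061639, plus strand), a window poor in CpG.
Tgfbr2: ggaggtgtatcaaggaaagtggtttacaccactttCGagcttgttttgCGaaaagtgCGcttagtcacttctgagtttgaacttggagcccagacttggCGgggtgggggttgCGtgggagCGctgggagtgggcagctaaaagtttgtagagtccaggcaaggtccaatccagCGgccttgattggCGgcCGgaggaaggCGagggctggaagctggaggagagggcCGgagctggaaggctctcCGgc
Smad9: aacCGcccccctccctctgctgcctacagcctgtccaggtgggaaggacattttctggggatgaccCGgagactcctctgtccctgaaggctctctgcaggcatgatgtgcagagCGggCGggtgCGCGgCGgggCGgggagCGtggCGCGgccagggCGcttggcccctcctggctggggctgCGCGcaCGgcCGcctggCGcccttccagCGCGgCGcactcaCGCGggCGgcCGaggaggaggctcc
Ski: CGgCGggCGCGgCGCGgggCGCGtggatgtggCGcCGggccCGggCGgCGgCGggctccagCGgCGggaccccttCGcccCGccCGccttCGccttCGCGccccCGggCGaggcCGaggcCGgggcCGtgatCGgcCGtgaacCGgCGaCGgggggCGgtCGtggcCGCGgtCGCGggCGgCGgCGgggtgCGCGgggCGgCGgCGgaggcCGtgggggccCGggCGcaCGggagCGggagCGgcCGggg
Mstn: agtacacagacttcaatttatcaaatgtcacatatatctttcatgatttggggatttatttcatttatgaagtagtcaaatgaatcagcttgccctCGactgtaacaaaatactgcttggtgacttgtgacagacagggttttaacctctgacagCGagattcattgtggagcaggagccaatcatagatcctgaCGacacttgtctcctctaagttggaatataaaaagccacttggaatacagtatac

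The motif searched was the dinucleotide CG, which reads the same on both strands. These windows hold 12 CpG in Tgfbr2, 24 in Smad9, 53 in Ski and 3 in Mstn. Over the 53 windows of the 43 genes the median was 21 CpG (range 1 to 53), and over 21263 windows of protein-coding genes it was 10. At least 1 CpG was found in all 53 member windows and in 93.4% of protein-coding windows. With a CpG-rich window defined by an observed-to-expected CpG ratio over 0.6 and a GC content over 50%, 32 of 53 member windows (60.4%) were CpG-rich, where 41.2% of protein-coding windows were. All 7 Smad windows (5 genes) and all 7 inhibitor windows (7 genes) were CpG-rich, but only 6 of 17 ligand windows (16 genes). Some of the Smad5 windows overlap each other, and Smad2, Smad4 and Smad7 have no window. No region overlapped any of the 53 member windows, which allows a share of up to 5.66% (3 of 53). Over protein-coding windows the share was 0.673%, with 25 of 8763 CpG-rich windows and 118 of 12500 others. The list does not tell apart promoters that were unmethylated in both libraries, unchanged, higher in tamoxifen or too thinly captured.

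**Figure D3:**
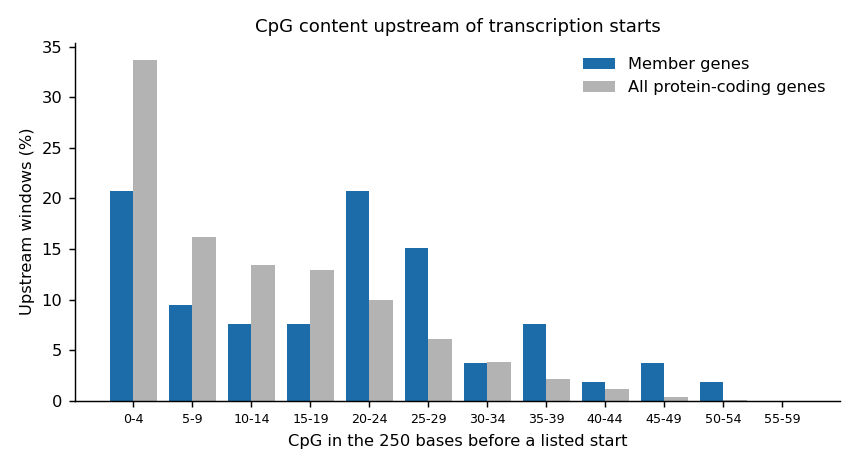
Percent of upstream windows (vertical axis) by the number of CpG in the 250 bases before a listed start (horizontal axis), for the 53 windows of 43 member genes (blue) and the 21263 windows of protein-coding genes (grey). The member windows have a median of 21 CpG and the protein-coding windows a median of 10.

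Among the ligand genes, 13 of 22 (59.1%) carried regions, 20 in all, with a median fold of 5.00. The 22 genes ran from 3.08 to 155 kb, with a median length of 15.5 kb. Over all protein-coding genes the share with a region was 45.2%. At 5 to 20 kb it was 37.1%, and of the ligand genes of that length only Tgfb1 and Gdf6 carried one. At 20 kb or more, where the share was 66.8%, every ligand gene but Inhba carried one. Under 5 kb, where it was 13.2%, Inha, Gdf5 and Gdf15 carried one and Gdf7 did not. All 3 TGF-beta genes held 1 region each. Tgfb1, the main TGF-beta of injured muscle, had 25 tamoxifen tags against 117 oil tags in its body (chromosome 7, 25700148 to 25700440), a signal of 16.3% of oil (limits 10.1% to 25.3%) and a fold of 5.88. The Tgfb2 region (chromosome 1, 186710996 to 186711200) lay beyond the right end of the gene and 5.11 kb upstream of its listed start. It had 3 tamoxifen tags against 26 oil tags, 8.80% of oil (limits 1.70% to 28.7%), the lowest percent among the ligand regions. Tgfb3 had 33 tamoxifen tags against 132 oil tags (chromosome 12, 86066045 to 86066358), a fold of 5.08. The limits of these 3 regions overlap, so their depth cannot be ranked beyond counting error.

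BMP ligand genes held regions in long bodies. Bmp6, a BMP ligand also known for control of liver iron sensing, had 4 regions, with 30, 10, 12 and 26 tamoxifen tags against 149, 42, 48 and 88 oil tags along the gene. Their folds were 6.28, 4.98, 4.83 and 4.27, and the first lay 7.93 kb downstream of the start (chromosome 13, 38353378 to 38353908). Bmp7, which acts in kidney and eye development, also had 4, with 39, 6, 18 and 11 tamoxifen tags against 127, 36, 57 and 50 oil tags. Its strongest region (chromosome 2, 172905006 to 172905218) had a fold of 6.64. The Bmp7 region of 39 against 127 tags lay near the gene's left end (chromosome 2, 172868938 to 172869374), at 23.4% of oil (limits 15.9% to 33.8%) and a fold of 4.16. Bmp3, which encodes a BMP family member that opposes other BMPs in bone, had 35 tamoxifen tags against 138 oil tags (fold 5.02). Bmp5 had 16 and 40 tamoxifen tags against 47 and 91 oil tags, with folds of 3.64 and 2.92, and the second region (chromosome 9, 75899691 to 75899925), at the gene's right end, was at 33.5% of oil (limits 22.5% to 49.1%).

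The neighbouring and closely related genes Bmp8a and Bmp8b each had a well covered region. Bmp8a had 100 tamoxifen tags against 192 oil tags (chromosome 4, 123320842 to 123321318), 39.7% of oil (limits 30.9% to 50.8%) and a fold of 2.50. Bmp8b had 48 tamoxifen tags against 205 oil tags (chromosome 4, 123118535 to 123119148), 17.9% of oil (limits 12.8% to 24.6%) and a fold of 5.48. The 2 genes are near copies, and the sources used here do not say how reads that match both were placed. Growth and differentiation factor genes completed the set. Gdf5, a joint and tendon factor, had 24 tamoxifen tags against 116 oil tags inside the gene (chromosome 2, 155943119 to 155943439, fold 6.06), 15.8% of oil (limits 9.72% to 24.6%). Gdf15, a stress-induced factor, had 34 tamoxifen tags against 147 oil tags 1622 bp beyond its left end (chromosome 8, 70627482 to 70627771, fold 5.50). That region was at 17.6% of oil (limits 11.8% to 25.8%) and lay 4.47 kb downstream of the nearest start, on the far side of the gene. Inha, the inhibin alpha subunit, had 12 tamoxifen tags against 41 oil tags (chromosome 1, 75509712 to 75509936, fold 4.14), 22.3% of oil (limits 10.7% to 43.3%), near the gene's right end. Gdf6 had 9 tamoxifen tags against 30 oil tags (fold 3.94), and no other ligand gene lost its region at a q limit of 1e-10.

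The myostatin gene Mstn and its close relative Gdf11 had no region over the gene or its flanks. Mstn is 6.44 kb long and Gdf11 11.2 kb, and 37.1% of protein-coding genes of 5 to 20 kb carried a region. The other ligand genes without one were Bmp2, Bmp4, Bmp10, Inhba, Inhbb, Gdf7 and Gdf10. All of these but Inhba (27.4 kb) are under 20 kb, a length at which 27.0% of protein-coding genes carried a region. The nearest region to the Mstn body lay 80.2 kb away, that of Inhba, which encodes the activin A subunit, 123 kb away, and that of Gdf10 235 kb away. Bmp4 was closest among these genes, with 10 tamoxifen tags against 48 oil tags at 3.12 kb (fold 5.68), and Gdf11 had 19 tamoxifen tags against 103 oil tags at 6.43 kb (fold 6.71). Both lie beyond the limit of 2000 bp and were not counted.

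Of the 13 receptor genes, 9 (69.2%) carried regions, 28 in all, with a median fold of 4.96. The 13 genes had a median length of 89.2 kb, and 72.5% of protein-coding genes of 50 to 100 kb carried a region. The type II receptor gene Tgfbr2, which binds TGF-beta first, had the region nearest to any listed start. It lay 1.44 kb downstream of the start whose upstream window is printed above (chromosome 9, 116173809 to 116174038) and had 3 tamoxifen tags against 29 oil tags, 7.89% of oil (limits 1.54% to 25.5%) and a fold of 9.12. The second Tgfbr2 region had only 4 tamoxifen tags against 15 oil tags and was not past a q limit of 1e-06. Tgfbr3, which encodes the co-receptor betaglycan, held 4 regions. In genome order they had 8, 26, 16 and 56 tamoxifen tags against 63, 100, 55 and 100 oil tags. The first, at the gene's left end (chromosome 5, 107106856 to 107107174), was at 9.68% of oil (limits 4.01% to 20.3%) and the last (107255503 to 107255892) at 42.7% (limits 30.2% to 59.8%), the highest percent of the 95 regions.

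Activin receptor genes made up most of the others. Acvr2b, the main receptor of myostatin, held 5 regions, with 20, 17, 105, 18 and 15 tamoxifen tags against 64, 45, 196, 94 and 63 oil tags. The third of them was followed by the next after 165 bp (chromosome 9, 119433318 to 119434186 and 119434352 to 119434850). Their tamoxifen signals were 40.9% of oil (limits 31.9% to 52.0%) and 14.6% (limits 8.30% to 24.4%). The last of the 5 (119440889 to 119441163), at the gene's right end, was at 18.2% (limits 9.60% to 32.3%) with a fold of 5.14. Acvr1, a type I receptor for BMPs, also held 5 regions, with 3, 11, 8, 12 and 25 tamoxifen tags against 29, 59, 37, 47 and 55 oil tags. The fold was 9.12 in the first of these (chromosome 2, 58463942 to 58464220) and 2.79 in the last. Acvr1c, its neighbour at 88.5 kb on chromosome 2, held 3, with 13, 41 and 7 tamoxifen tags against 47, 159 and 44 oil tags and folds of 4.40 to 7.10.

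Acvrl1, a type I receptor of endothelial cells, and Acvr1b, a type I receptor for activin, lie 28.7 kb apart on chromosome 15. Acvrl1 had 7, 21 and 71 tamoxifen tags against 38, 50 and 154 oil tags, with folds of 6.15, 3.00 and 2.81. Its 3 regions in 16.8 kb gave 14.4 per 100 kb of gene and flanks, the highest density among the receptor genes. Acvr1b had 5 and 13 tamoxifen tags against 32 and 56 oil tags, with folds of 6.86 and 5.22, and the second region (101213375 to 101213624), at the gene's right end, was at 17.7% of oil (limits 8.88% to 32.8%). The BMP type I receptor gene Bmpr1a had 9, 13 and 9 tamoxifen tags against 38, 64 and 37 oil tags, with folds of 4.83 to 5.96. One of its regions lay 2.40 kb upstream of the listed start (chromosome 14, 34504840 to 34505045), at 18.6% of oil (limits 7.87% to 39.1%) and a fold of 4.83. Another, at the opposite end (34410872 to 34411074), was at 18.1% (limits 7.68% to 38.0%) with a fold of 4.96. Bmpr1b, a gene of 332 kb, held only 1 region, with 6 tamoxifen tags against 42 oil tags (fold 7.71). The type I gene Tgfbr1, the type II genes Acvr2a and Bmpr2 and the endothelial co-receptor gene Eng had none, although Acvr2a spans 89.2 kb and Bmpr2 114 kb. Among protein-coding genes of 100 kb or more, 84.9% carried a region, and Bmpr2 was the only one of 9 such members without one. The nearest region to Eng, 5.815 kb away, had 7 tamoxifen tags against 56 oil tags (fold 8.99). It lies beyond the limit of 2000 bp and was not counted.

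The region with the highest fold in the 58 genes lay in a Smad gene. Of 8 Smad genes, 6 (75%) carried regions, 21 in all, with a median fold of 5.18. Over all protein-coding genes the share with a region was 45.2%. The median length of the 8 genes lay between 50 and 100 kb, a length at which 72.5% of protein-coding genes carried a region. Smad7 encodes an inhibitory Smad that TGF-beta itself induces and that blocks and degrades type I receptors. Its 5 regions had 34, 2 or fewer, 4, 13 and 8 tamoxifen tags against 78, 35, 81, 46 and 34 oil tags in genome order. The third (chromosome 18, 75381124 to 75381641), 518 bp long and inside the gene, was at 3.77% of oil (limits 1.00% to 10.02%). Its fold of 20.24 ranked 11 of all 39231 regions. The second (75377937 to 75378236) had a fold of 11.61, which was set by the genome mean that the caller uses as its lowest background, and its tamoxifen signal was at most 4.36% of oil (upper limit 17.0%). The first lay 1905 bp left of the gene (75365256 to 75365460), inside another annotated gene, Gm20544, and was at 33.2% of oil (limits 21.5% to 50.3%). Its fold was 2.93, the lowest of the 5. With 15.4 regions per 100 kb of gene and flanks, Smad7 was the densest of the 58 genes.

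**Figure D4:**
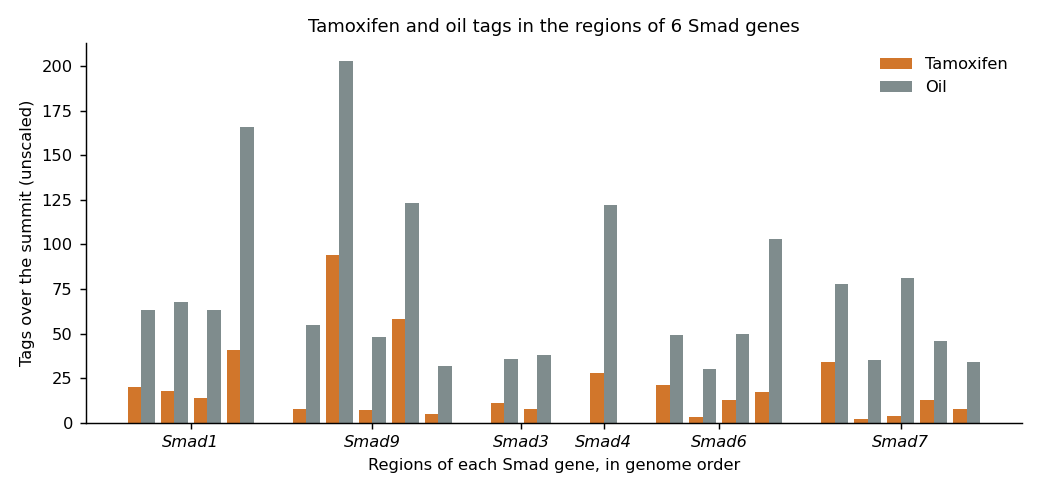
Unscaled tags over the summit (vertical axis) in the tamoxifen library (orange, left bar of each pair) and the oil library (grey, right bar) for the 21 regions of 6 Smad genes, in genome order within each gene (horizontal axis), with 1 library each. The middle Smad7 pair has 4 tamoxifen tags against 81 oil tags, and the second Smad9 pair has 94 tamoxifen tags against 203 oil tags.

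Smad6, the inhibitory Smad that mainly opposes BMP signals, held 4 regions, with 21, 3, 13 and 17 tamoxifen tags against 49, 30, 50 and 103 oil tags. The second (chromosome 9, 63970310 to 63970540) was at 7.63% of oil (limits 1.49% to 24.5%), a fold of 9.43, and the fourth (64010034 to 64010548), 11.8 kb downstream of the start, was at 12.6% of oil (limits 7.06% to 21.1%). The first (63953578 to 63953999) lay near the far end of the gene, at 32.7% (limits 18.6% to 55.5%) and a fold of 2.94. Smad3, a TGF-beta and activin Smad whose gene lies 195 kb from Smad6, had 11 and 8 tamoxifen tags against 36 and 38 oil tags (folds 3.94 and 5.49). The second (63738235 to 63738447) was at 16.1% of oil (limits 6.47% to 34.9%). Smad3 was covered by fewer regions than Smad6 in a longer gene, 1.74 against 5.48 per 100 kb of gene and flanks.

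The BMP Smad genes Smad1 and Smad9 held 9 regions between them, and Smad5 held none. Smad1 had 20, 18, 14 and 41 tamoxifen tags against 63, 68, 63 and 166 oil tags, with folds from 3.94 to 5.48. The strongest by fold (chromosome 8, 79391402 to 79391681) was at 16.9% of oil (limits 8.77% to 30.6%). The best covered lay 4.45 kb downstream of the start (chromosome 8, 79394725 to 79395235). Smad9 held 5 regions. Those with 8, 7 and 5 tamoxifen tags against 55, 48 and 32 oil tags had folds of 7.89, 7.73 and 6.86. Those with 94 and 58 tamoxifen tags against 203 and 123 oil tags (chromosome 3, 54766171 to 54766866 and 54786136 to 54786476) had folds of 2.81 and 2.74. The 2 heavily covered regions were at 35.3% (limits 27.4% to 45.3%) and 36.0% (limits 25.9% to 49.5%) of oil. The regions of 8, 7 and 5 tags were at 11.1% (limits 4.56% to 23.4%), 11.1% (limits 4.25% to 24.7%) and 11.9% (limits 3.62% to 30.8%), and the limits of the last overlap those of both heavily covered regions. The region nearest the Smad9 start (54758356 to 54758631) was that of 8 tags, 2.91 kb downstream of the CpG-rich window printed above. Smad4, the common partner of receptor Smads, had 1 region of 28 tamoxifen tags against 122 oil tags (chromosome 18, 73667929 to 73668246, fold 5.50), 17.5% of oil (limits 11.2% to 26.6%). Smad2 had none over 70.7 kb, and its nearest region lay 31.0 kb away.

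Of the 10 inhibitor genes, 4 (40.0%) carried regions, 14 in all, with a median fold of 4.96. These were Ski, Smurf1 and Smurf2, which act inside the cell, and Fstl1, which is secreted. The 10 genes had a median length of 19.4 kb. The share with a region was 45.2% over all protein-coding genes and 37.1% over those of 5 to 20 kb. The 4 genes with a region are 59.5 to 101 kb long. Of protein-coding genes, 72.5% carried one at 50 to 100 kb and 84.9% at 100 kb or more. Ski, a corepressor that binds Smad complexes in the nucleus, held 6, with 5, 7, 20, 14, 10 and 3 tamoxifen tags against 32, 69, 54, 62, 41 and 30 oil tags. The second (chromosome 4, 155156334 to 155156863) was at 7.74% of oil (limits 3.00% to 16.8%), a fold of 11.04. The first (155154093 to 155154330) was at 11.9% (limits 3.62% to 30.8%), a fold of 6.86. The first 3 regions lay within 5 kb of the gene's left end, which is the end far from the start printed above, and the region nearest that start was 17.2 kb from it (155205231 to 155205512, fold 9.43). Smurf1, a ubiquitin ligase that targets BMP Smads and receptors, also held 6, with 26, 7, 20, 36, 11 and 3 tamoxifen tags against 78, 31, 60, 65, 51 and 25 oil tags. Its folds ran from 2.32 to 7.91, and the fourth region (chromosome 5, 144914009 to 144914443) was no longer past the authors' limit with unscaled tamoxifen tags. Smurf2, a related ligase, had 1 region of 25 tamoxifen tags against 73 oil tags (fold 3.69).

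Of the secreted proteins, only the follistatin-like gene Fstl1 carried a region, with 14 tamoxifen tags against 47 oil tags (chromosome 16, 37794412 to 37794630, fold 4.11). The BMP antagonist genes Nog, Chrd and Grem1, the activin and myostatin antagonist genes Fst and Fstl3, and the Ski relative Skil had none. Nog, Chrd, Grem1, Fst and Fstl3 are 1.92 to 11.0 kb long, lengths at which most protein-coding genes carried no region. A region lay 8.59 kb from Nog, with 44 tamoxifen tags against 149 oil tags (fold 4.34), and 8.10 kb from Fst, with 18 tamoxifen tags against 80 oil tags (fold 5.50).

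**Figure D5:**
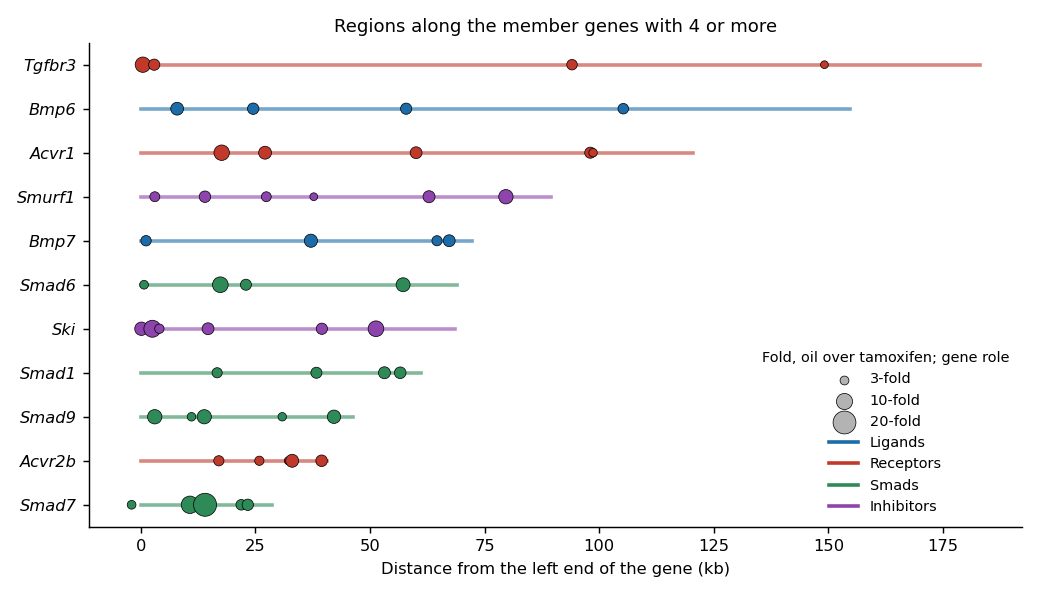
Regions (circles, area in proportion to the authors' fold, oil over tamoxifen) along the 11 member genes with 4 or more regions, drawn as lines from the left end of the gene (horizontal axis, kb, not oriented by strand) and coloured by role. The largest circle is the Smad7 region of 20.24-fold, and 3 of the 6 regions of Ski lie within 5 kb of the left end of the gene.

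All 5 genes of latency and processing carried regions, 12 in all, with a median fold of 4.58. The share over all protein-coding genes was 45.2%, and 4 of these 5 genes are over 20 kb long, a length at which 66.8% of protein-coding genes carried a region. Latent TGF-beta binding proteins tether the inactive TGF-beta complex to the matrix. Ltbp4 had 4 and 11 tamoxifen tags against 42 and 39 oil tags, and the first of its regions (chromosome 7, 27318448 to 27318675) was at 7.26% of oil (limits 1.89% to 20.0%), a fold of 10.62. Ltbp1, the longest of the 58 genes at 387 kb, had 7, 58 and 16 tamoxifen tags against 26, 153 and 52 oil tags, with folds of 4.26, 3.40 and 4.01. All 3 lay within 15 kb of the second listed start of Ltbp1, at 14.3 and 13.6 kb upstream and 4.01 kb downstream. Ltbp2, a family member that does not bind latent TGF-beta, had 14, 11 and 20 tamoxifen tags against 40, 59 and 61 oil tags (folds 3.51, 6.39 and 3.81). Ltbp3 had 5 tamoxifen tags against 24 oil tags (fold 5.19, not past a q limit of 1e-10). Bmp1, which despite its name encodes a metalloprotease that cleaves procollagen and the antagonist chordin, had 7, 15 and 18 tamoxifen tags against 31, 60 and 82 oil tags, with folds of 4.90 to 5.64.

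Across the roles, the summed signals were close to each other. The tamoxifen signal over all summits of a role was 21.6% of oil in ligands (limits 19.5% to 23.7%), 23.7% in receptors (21.5% to 26.0%), 21.4% in Smads (19.2% to 23.8%), 21.3% in inhibitors (18.2% to 25.0%) and 21.2% in latency and processing genes (17.9% to 25.0%). All of these limits overlap. The 7 regions with 50 or more tamoxifen tags, in Bmp8a, Tgfbr3, Acvrl1, Acvr2b, Smad9 (2 regions) and Ltbp1, had folds of 2.31 to 3.40. The fold divides by the scaled tamoxifen tags, so choosing regions with many of them favours low folds, and these values are a description only. Genes with 4 or more regions made up 11 of the 58 (19.0%), where the share of protein-coding genes was 8.97%. That share was not matched for length. Each of the 11 was over 28 kb long, and the median protein-coding gene was 17.2 kb long. Of the 95 regions, 5 also overlapped another annotated gene, so that they cannot be given to the member alone. These were 1 in Bmp3, 2 in Bmp7, 1 in Smad3 and the one left of Smad7.

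A further 68 genes of the pathway were examined for comparison, and 30 of them (44.1%) carried regions, 99 in all, where the protein-coding share was 45.2%. By role these were 3 of 11 ligands, 2 of 6 receptors and co-receptors, 8 of 19 inhibitors, 10 of 14 genes of latency, matrix and processing, 5 of 9 Smad partners and 2 of 9 target genes. The roles differ in gene length, with target genes of 1.16 to 29.6 kb and latency, matrix and processing genes of 12.3 to 206 kb. Their counts were not matched for length. The highest fold was in Nedd4l, whose ubiquitin ligase marks activated Smad2 and Smad3 for degradation. One of its 13 regions (chromosome 18, 64929033 to 64929297) had 4 tamoxifen tags against 71 oil tags, a fold of 17.78. Pmepa1, a TGF-beta target whose product sequesters receptor Smads, held 10 regions, the strongest with 5 tamoxifen tags against 70 oil tags (chromosome 2, 173226752 to 173227033, fold 14.75). Map3k7, which encodes the TGF-beta activated kinase TAK1, followed with 4 tamoxifen tags against 49 oil tags (chromosome 4, 31983516 to 31983743, fold 12.34). Of the BMP target genes Id1, Id2, Id3 and Id4, none carried a region. These genes are 1.16 to 4.91 kb long, and 13.2% of protein-coding genes under 5 kb carried a region.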

How the data were processed

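The submitters' processing notes list Trim Galore, HISAT2, MACS2 2.2.6 and the mm10 build. Per the file headers, the authors called 1 list of regions with the oil alignment as treatment and the tamoxifen alignment as control, kept 1 tag per position and strand, extended tags to 201 bp, scaled the larger library to the smaller and used a q cutoff of 1e-04. The list holds 1 comparison of 1 library with 1 library and no per-sample counts. Its deposited pileup is a signal, the extended oil tags over the summit. Its deposited fold enrichment is a ratio, oil plus 1 over scaled tamoxifen plus 1. The headings of 2 deposited columns were lost, and these were read as the authors' −log10 p and −log10 q from their place in the caller's output. The authors' p and q compare 2 libraries, not 2 conditions.

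Tamoxifen tags were recovered from pileup and fold with a library factor of 0.763, whole within 0.02 tags in 97.5% of regions. In the rest (980) the value was the genome mean of 2.10 scaled tags, so 2 or fewer tags. Recovery was tested on data simulated with the same formula, which checks the code but not whether the deposited folds follow that formula. PCR copies were limited only by position, so intervals (Clopper-Pearson, 95%) cover counting error only. Regions were joined by 1 bp of overlap to RefSeq genes of GRCm38.p6, the assembly of mm10, whose table gives no exons, and to RefSeq starts where listed. No genome sequence was used, so CpG content of the regions was not examined. Python 3.11.15 and SciPy 1.17.1 were used.

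Genes and roles were chosen with earlier results of these data known. Place, tags, fold and limits are given for the region of highest fold in each Smad gene with one. In the other roles, tags are given for every region. Place, fold or limits are added for regions of high fold and for regions within 2000 bp of a start or gene end, but not all of them in every case. Of the other pathway genes, the 3 of highest fold are described. Alternatives were stricter q limits, other gene extensions, a midpoint rule, unscaled tags and tag ratios with nothing added.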

Additional observations from a re-analysis of the deposited data

How the results depend on the processing

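The count of 37 genes with a region stayed between 35 and 42 under every alternative tried: q limits of 1e-06 and 1e-10, no extension, an extension of 10000 bp, the midpoint rule and unscaled tamoxifen tags. At a q limit of 1e-10, Gdf6 and Ltbp3 no longer carried a region. With no extension, Tgfb2 and Gdf15 did not. With 10000 bp, Bmp4, Gdf11, Eng, Nog and Fst gained one. The median fold of 4.96 ran from 3.89 with unscaled tags to 5.38 for tag ratios with nothing added. The count of 5 genes with a region near a start or end was 3 by midpoint and 14 with either end used for every gene, a choice made after the data were seen. The summed tamoxifen signal of 22.0% of oil was 28.9% with unscaled tags, since the scaling itself lowers it. With unscaled tags and the p recomputed, also added after the data were seen, 93 of the 95 regions still passed the lowest p of the list, all but 1 each in Tgfbr2 and Smurf1. Extensions were not applied to the count near starts and ends. No replicate could be left out, and no paired analysis was possible because each treatment has 1 library. The authors' q limit needs enough oil tags, so weakly captured stretches could not be listed at this depth.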
